A study of Mus musculus with 54 samples.

Results

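The genes studied here encode the nuclear pore complex, the protein channel through which RNA and proteins pass between nucleus and cytoplasm. Membership was set by a list of 30 genes, most of them nucleoporins, and expression values were found for 28 of these among the 14104 genes read on the arrays. The inner ring gene Nup35 and the basket gene Tpr had no probe set in the table and are not analysed here. A gene was read by the probe set (a group of short oligonucleotides on the array) with the highest mean over all 54 arrays, out of 72 probe sets for the 28 genes.

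The male murine embryonic stem cell (ESC) line CGR8, of strain 129, was studied in 3 forms. KD cells carry an shRNA against Mageb16, a gene of the melanoma antigen family. SCR cells carry a scrambled shRNA with no target, and WT cells carry no construct. Both constructs came in on retroviral plasmids with GFP and puromycin resistance, and each was kept as 1 stable polyclonal line, so the effect of the shRNA and the effect of the line cannot be told apart. RNA was taken from undifferentiated ESCs (day 0) and from embryoid bodies (EBs, aggregates grown by the hanging drop method) at days 2, 4, 12, 15 and 22, and each of the 18 combinations of line and day was read on 3 arrays. Days 12, 15 and 22 together are called late EBs below, with 9 arrays a line.

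A pore is built from many copies of a modest number of proteins that join into subcomplexes. The Y complex forms the outer rings that face nucleus and cytoplasm, the inner ring holds the pore in the nuclear envelope, and the channel nucleoporins carry the phenylalanine-glycine repeats that transport receptors bind. Membrane nucleoporins anchor the pore, filaments on the cytoplasmic side release exported RNA, and the basket reaches into the nucleus. Dividing cells have to take pores apart in mitosis, rebuild them afterwards and make new ones before the next division.

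Promoter sequences are shown for 4 genes that mark the range of what follows: Nup37 and Nup107, members of the Y complex that were lower in late KD EBs, Nup210, which also differed on day 4, and Sec13, which went the other way. Each line gives the 150 bases before an annotated start of transcription on the gene's own strand, from RefSeq (build GRCm38.p6). The annotated gene can begin further upstream. The Nup210 window lies wholly inside the annotated gene, and the Nup37 and Nup107 windows end inside theirs. Capitals mark matches to the short motifs searched for: CCAAT (the CCAAT box) in Nup37, GCGCATGCG (NRF1) in Nup107, TTTCCCGC (E2F) in Nup210 and CCGGAAGT (ETS) in Sec13.
Nup37 (chr10:88146842-88146991, plus strand): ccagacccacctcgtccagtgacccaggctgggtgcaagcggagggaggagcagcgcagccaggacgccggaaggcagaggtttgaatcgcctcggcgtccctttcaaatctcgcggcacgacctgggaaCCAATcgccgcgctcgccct
Nup107 (chr10:117792706-117792855, minus strand): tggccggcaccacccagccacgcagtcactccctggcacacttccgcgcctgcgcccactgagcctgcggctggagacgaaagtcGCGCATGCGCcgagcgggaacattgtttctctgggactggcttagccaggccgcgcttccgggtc
Nup210 (chr6:91116827-91116976, minus strand): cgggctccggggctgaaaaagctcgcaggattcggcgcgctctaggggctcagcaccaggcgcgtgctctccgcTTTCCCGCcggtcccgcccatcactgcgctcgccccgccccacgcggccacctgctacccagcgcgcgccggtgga
Sec13 (chr6:113740682-113740831, minus strand): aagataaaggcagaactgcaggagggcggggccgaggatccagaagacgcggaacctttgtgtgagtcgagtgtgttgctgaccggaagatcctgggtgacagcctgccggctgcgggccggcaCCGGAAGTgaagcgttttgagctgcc

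All 4 windows are rich in G and C, at 66.7% in Nup37, 68.0% in Nup107, 74.0% in Nup210 and 61.3% in Sec13. In Nup107 the NRF1 motif is read on both strands with the matches overlapping, which is why 10 letters are in capitals. Over the full windows of the table (250 bases before to 50 after the start), 29 promoters of 26 listed genes were matched by symbol (not Nup35, Nup43, Nup85 and Seh1l) and 6 motifs were searched on both strands. NRF1 was in 4 of the 29 (1.75% of all 32851 promoters), ETS in 5 (3.89%) and AAGATGGCG (YY1) in 4 (1.40%). The E2F motif was in 1 (1.07%), its variant TTTGGCGC in 0 (0.514%), and CCAAT in 12 (37.4%). No motif was in most of the promoters, and 7 of the 26 genes had no match. These are matches of letters, not sites shown to be bound.

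The knockdown was first read from Mageb16 itself. Its log2 signal lay between 3.49 and 7.43 in KD samples, between 8.87 and 10.15 in SCR samples and between 6.98 and 9.99 in WT samples, and on each day the KD arrays lay below those of SCR and WT. Arrays of 1 group correlated at r = 0.986 to 0.997, and the median SD of a pore gene within a group was 0.07 log2. Nothing in the labels tells separate cultures from repeat samples of 1 culture, so p values measure only the spread between these arrays. Replicate 3 stood apart: in 17 of 18 groups it was the middle value of the 3 arrays in 39.29 to 58.3% of probe sets, more often than either other replicate, where exchangeable arrays would give 33.3% each, and the cause was not tested. Lead counts are therefore also given without it.

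Late KD EBs had less RNA of nearly all pore genes than late SCR EBs. Of the 28 genes, 25 were lower in KD at a limma adjusted p under 0.05, beside 39.0% of all genes tested, and 1 (Sec13) was higher, beside 38.1%. Among the 25, Nup50 was lowered least (-0.16 log2) and Nup43 most (-1.04). The median log2 change was -0.52 for the pore genes and -0.02 for all genes, and 27 of the 28 were below 0, as were 51.6% of all genes. Most of these changes were small: under the study's rule, which asks for a 2-fold change as well, only Nup43 was called lower (4.88% of all genes). Pore genes are bright on the array, and among the 9976 genes read by the brightest 60% of probe sets the share called lower was 43.9%. In 18 of the 28 genes the highest of the 9 late KD arrays lay below the lowest of the 9 late SCR arrays, which held for 14.5% of all genes. Without replicate 3, 24 genes were lower. Bulk RNA was measured, so fewer cells that express a gene and less of its RNA per cell cannot be told apart.

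Each late day taken alone gave much the same. KD was lower than SCR in 24 genes on day 12 (28.1% of all genes), 25 on day 15 (31.3%) and 24 on day 22 (34.0%), with medians of -0.45, -0.54 and -0.52. Without replicate 3 these counts were 21, 20 and 22. By the 2-fold rule 1 gene was lower on day 12 (Nup43, beside 5.46%), 2 on day 15 (Nup37 and Nup43, beside 6.15%) and 0 on day 22 (4.61%). At an unadjusted p under 0.05 in limma, 24 genes were lower on day 22 (36.1% of all genes).

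Before day 12 the pore genes did not differ as a group between KD and SCR. On day 0, 1 gene was lower in KD than in SCR (Ranbp2, beside 7.78%) and 2 were higher (Nup37 and Nupl1, beside 9.93%), with a median of 0.06. On day 2, 3 were lower (Nup133, Nup88 and Ranbp2, beside 14.5%) and 4 higher (Seh1l, Pom121, Aaas and Nupl2, beside 16.5%). On day 4, 5 were lower (Nup160, Nup210, Nup88, Ranbp2 and Nup98, beside 23.5%) and 2 higher (Ndc1 and Pom121, beside 26.6%), and the median was -0.02. Without replicate 3, the lower genes numbered 1 on day 2 and 3 on day 4. The sole gene past the 2-fold rule on day 4 was Nup210 (6.15% of all genes), and this call was lost when SCR replicate 2 of that day was left out.

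**Figure D1:**
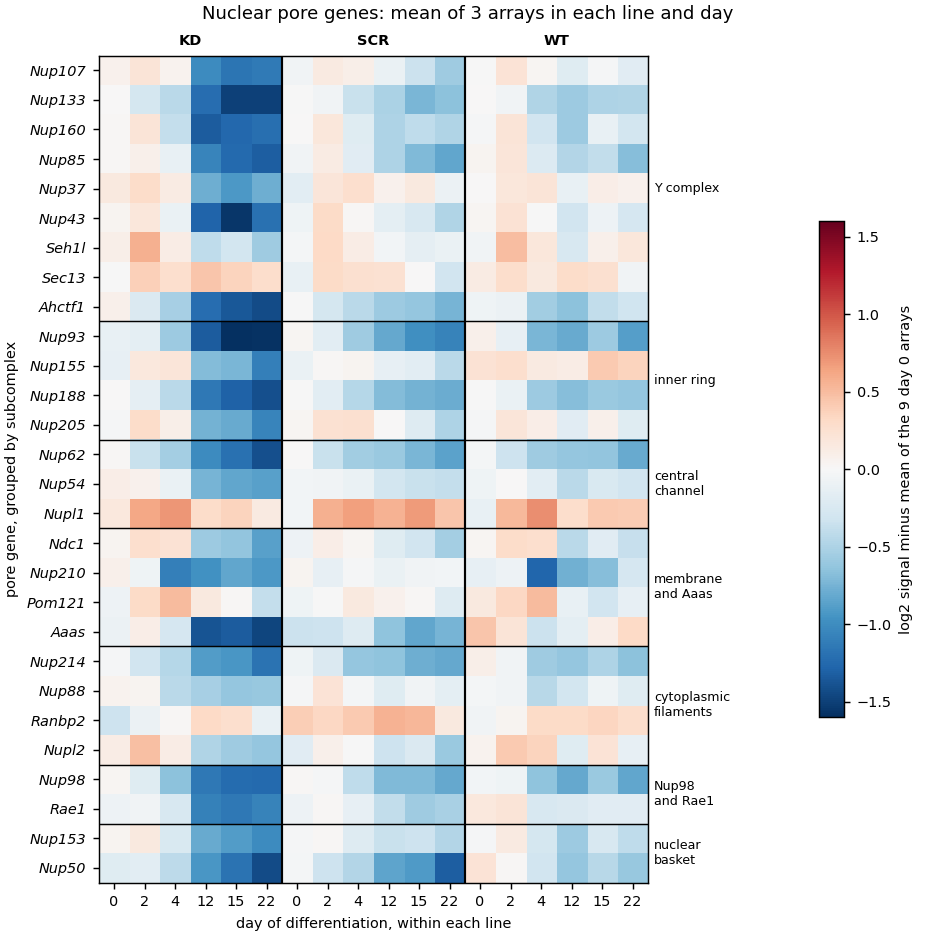
Mean log2 value of each of the 28 pore genes (rows, grouped by subcomplex) in each line on each day (columns, KD, SCR and WT), relative to the gene's mean over the 9 day-0 arrays. Late KD EBs form a block of low values, with 25 of 28 genes lower than in late SCR EBs. Some genes lie above that day-0 mean in late KD EBs, among them Sec13 and Nupl1 on all 3 late days and Ranbp2 on days 12 and 15.

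The Y complex is the scaffold unit that seeds new pores, and 8 of its 9 genes passed as lower in late KD EBs when set against SCR, with a median log2 change of -0.77. Nup43, a propeller protein on the short arm of the Y, read 8.60, 8.67 and 8.59 log2 in 12-day KD EBs, against 9.66, 9.77 and 9.78 in SCR and 9.68, 9.49 and 9.61 in WT. On day 15 it read 8.28, 8.43 and 8.32 in KD, against 9.68, 9.60 and 9.64 in SCR and 9.78, 9.82 and 9.84 in WT. On day 22 the KD arrays gave 8.66, 8.74 and 8.72, against 9.44, 9.35 and 9.45 in SCR and 9.71, 9.56 and 9.62 in WT. Every late KD array was thus below every late SCR and WT array. The difference from SCR was -1.04 log2 (SE 0.0461, limma adjusted p = 9.51e-23). On day 0 Nup43 had read 9.93, 9.95 and 9.94 in KD ESCs, against 9.75, 9.92 and 9.80 in SCR and 9.69, 10.13 and 9.97 in WT, with the groups overlapping between KD and WT.

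Nup37, another propeller protein of the Y complex, behaved much like Nup43. On day 15 it read 9.21, 9.25 and 9.14 in KD EBs, against 10.30, 10.26 and 10.27 in SCR and 10.17, 10.25 and 10.26 in WT. Over late EBs its KD values ran between 9.14 and 9.47 with a median of 9.29, against 10.03 to 10.30 (median 10.19) in SCR and 9.85 to 10.26 (median 10.17) in WT. KD lay apart from both other lines, which overlapped each other, and the difference from SCR was -0.87 (SE 0.0423, adjusted p = 2.03e-21). In undifferentiated cells the order was the other way: Nup37 read 10.31, 10.25 and 10.29 in KD ESCs, against 9.84, 10.10 and 9.94 in SCR.

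The stem and core of the Y followed. Nup107 gave 8.75 to 9.01 (median 8.88) in late KD EBs, against 9.38 to 9.95 (median 9.66) in SCR and 9.74 to 10.05 (median 9.84) in WT, a difference from SCR of -0.77 (SE 0.0339, adjusted p = 7.78e-23). Nup133, which forms the foot of the stem, gave 8.35 to 8.74 (median 8.47) in KD, against 9.11 to 9.46 (median 9.32) in SCR and 9.25 to 9.57 (median 9.40) in WT. Its difference from SCR was also -0.77 (SE 0.0477, adjusted p = 6.28e-18). Neither gene overlapped between KD and the other lines. Nup160 (-0.81), Ahctf1 (-0.69), which brings the Y complex to chromatin at the end of mitosis, and Nup85 (-0.53) were lower as well.

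Seh1l and Sec13, both also part of other complexes in the cell, moved least or the other way. Seh1l, shared with the GATOR complex that senses amino acids, read 9.43 to 9.77 (median 9.63) in late KD EBs, against 9.85 to 10.06 (median 9.94) in SCR and 9.75 to 10.24 (median 10.11) in WT. KD and SCR did not overlap although the difference was small (-0.32, SE 0.0317, adjusted p = 5.85e-12). Its 6 other probe sets gave -0.16 to -1.002 for the same comparison, so the size of its change depended on the probe set read. Sec13, shared with the COPII coat that buds vesicles from the endoplasmic reticulum, was the sole gene higher in KD. On day 22 it read 9.94, 9.91 and 10.04 in KD EBs, against 9.28, 9.45 and 9.40 in SCR and 9.62, 9.66 and 9.59 in WT. On day 12 it read 10.15, 10.18 and 10.04 in KD, against 9.99, 9.88 and 9.92 in SCR and 9.97, 9.97 and 9.98 in WT. On day 15 it read 10.05, 10.02 and 10.07 in KD, against 9.74, 9.68 and 9.64 in SCR and 9.89, 9.97 and 9.96 in WT. The KD arrays lay above those of the other lines on all 3 days, but against WT the test passed only on day 22 (0.34, adjusted p = 9.37e-05) and not on day 12 (0.15, adjusted p = 0.0861) or day 15 (0.11, adjusted p = 0.21). Over late EBs the difference from SCR was 0.38 (SE 0.0424, adjusted p = 1.8e-10).

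**Figure D2:**
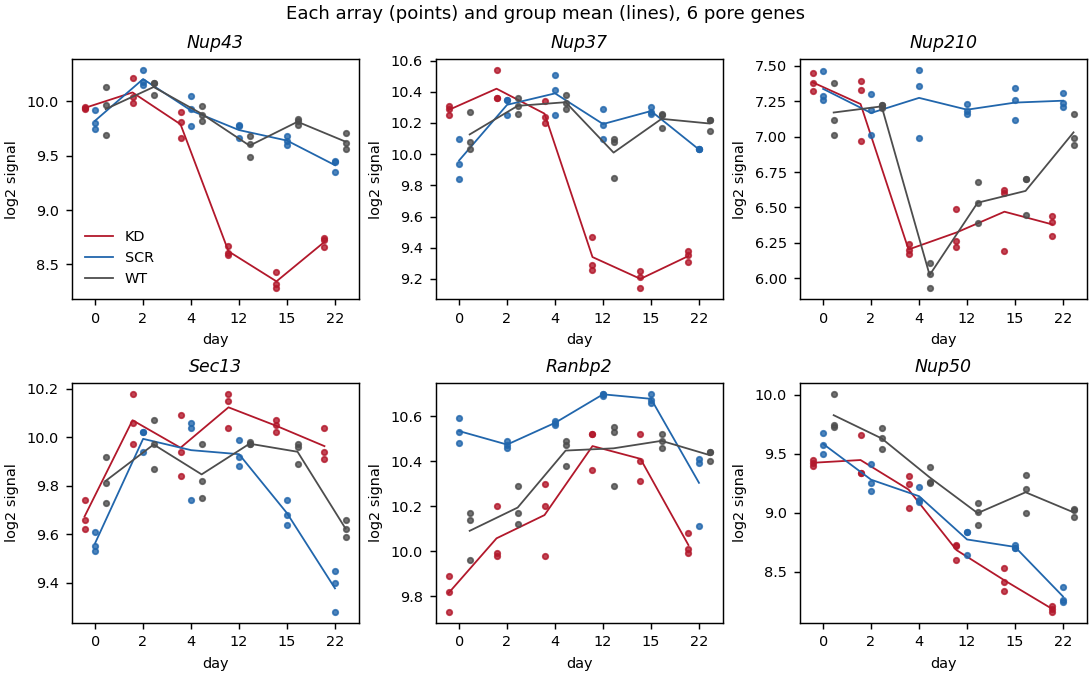
Log2 value of each array (points) by day of differentiation for Nup43, Nup37, Nup210, Sec13, Ranbp2 and Nup50 in KD, SCR and WT cells; the days are evenly spaced on the axis. Nup43 and Nup37 separate KD from both controls from day 12, Nup210 separates SCR from KD and WT on day 4, Sec13 is higher in late KD EBs, Ranbp2 differs on day 0, and Nup50 falls with time in all 3 lines.

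In the inner ring all 4 measured genes were lower in KD, with a median of -0.57. Nup205, a large scaffold of the ring, read 9.21, 9.16 and 8.98 in 22-day KD EBs, against 9.71, 9.60 and 9.74 in SCR and 9.97, 9.93 and 10.03 in WT, and over late EBs its difference from SCR was -0.65 (SE 0.0419, adjusted p = 2.24e-17). Nup188, its paralog in the ring, changed least of the 4, with 6.55 to 6.99 (median 6.83) in KD, against 7.09 to 7.50 (median 7.35) in SCR and 7.29 to 7.64 (median 7.50) in WT. Its difference from SCR was -0.54 (SE 0.0641, adjusted p = 9.1e-10). KD stood clear of both other lines in each of these genes. Nup155 (-0.60) and Nup93 (-0.55), which tie the ring to the membrane and to the channel, lay between them.

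The 3 channel nucleoporins were all lower in KD, with a median of -0.47. Nup62, the repeat protein at the centre of the pore, gave 10.25 to 10.74 (median 10.49) in late KD EBs, against 10.77 to 11.17 (median 10.96) in SCR and 10.85 to 11.15 (median 11.03) in WT. KD overlapped neither SCR nor WT, and the difference from SCR was -0.48 (SE 0.0359, adjusted p = 2.79e-15). Nupl1 (also called Nup58), its partner in the channel, changed least, with 10.56 to 10.96 (median 10.79) in KD, against 10.94 to 11.24 (median 11.08) in SCR and 10.77 to 11.03 (median 10.93) in WT. Here the KD arrays overlapped those of SCR and WT, and the difference from SCR was -0.30 (SE 0.0320, adjusted p = 8.77e-11). Nup54, the remaining channel gene, gave -0.47.

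Among the membrane nucleoporins and Aaas (aladin, which is held at the pore by Ndc1), 3 of 4 were lower in KD, with a median of -0.50. Nup210, a membrane protein known for being switched on in muscle and neural differentiation, gave 6.19 to 6.62 (median 6.40) in late KD EBs, against 7.12 to 7.34 (median 7.23) in SCR and 6.39 to 7.16 (median 6.70) in WT. KD did not overlap SCR but did overlap WT. The difference from SCR was -0.84 (SE 0.0659, adjusted p = 1.06e-14), and that from WT -0.34 (adjusted p = 1.79e-05). Nup210 differed already on day 4, where KD EBs read 6.24, 6.17 and 6.20, against 6.99, 7.47 and 7.36 in SCR and 5.93, 6.11 and 6.03 in WT. On that day KD was 1.07 log2 below SCR (difference -1.07, SE 0.114, adjusted p = 2.05e-10) and 0.18 above WT (adjusted p = 0.613), while SCR was 1.25 above WT (adjusted p = 3.74e-12). All 3 SCR arrays lay above all KD and WT arrays.

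Pom121, a membrane nucleoporin needed to insert new pores, did not pass the test in late EBs. It gave 8.70 to 9.44 (median 9.23) in KD, against 8.89 to 9.29 (median 9.24) in SCR and 8.86 to 9.23 (median 9.02) in WT, with wide overlap (KD minus SCR -0.03, SE 0.0529, adjusted p = 0.637). Aaas gave 6.93 to 7.25 (median 7.08) in KD, against 7.46 to 8.03 (median 7.68) in SCR and 8.11 to 8.84 (median 8.57) in WT. Its 3 lines were fully apart from each other, with KD at -0.65 from SCR (SE 0.0539, adjusted p = 4.79e-14). Ndc1, a membrane protein that anchors the pore, gave -0.35.

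The cytoplasmic filament genes changed less, with a median of -0.25 and 3 of 4 lower in KD. Nup88, which holds Nup214 at the pore, gave 9.68 to 9.87 (median 9.79) in late KD EBs, against 10.08 to 10.33 (median 10.22) in SCR and 10.06 to 10.33 (median 10.17) in WT. The KD arrays lay below all SCR and WT arrays, and the difference from SCR was -0.45 (SE 0.0329, adjusted p = 1.04e-15). Nupl2, which works with the export helicase factor Gle1, gave 4.73 to 5.12 (median 4.88) in KD, against 4.65 to 5.33 (median 5.18) in SCR and 5.23 to 5.82 (median 5.34) in WT. It was dim, KD and SCR overlapped and the difference did not pass (-0.18, SE 0.0858, adjusted p = 0.0643). Nup214 gave -0.25.

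Ranbp2, the large filament protein with SUMO ligase activity, differed most before differentiation began. In KD ESCs it read 9.82, 9.73 and 9.89, against 10.48, 10.53 and 10.59 in SCR ESCs and 10.17, 9.96 and 10.14 in WT ESCs. The 3 lines did not overlap. KD was 0.72 log2 below SCR (difference -0.72, SE 0.0785, adjusted p = 4.72e-09) and 0.28 below WT (difference -0.28, adjusted p = 0.012), and SCR was 0.44 above WT (adjusted p = 7.81e-05). In late EBs the gap between KD and SCR was smaller (-0.26, SE 0.0453, adjusted p = 3.36e-06), with 9.99 to 10.52 (median 10.36) in KD, against 10.11 to 10.70 (median 10.67) in SCR and 10.29 to 10.55 (median 10.46) in WT, and the arrays overlapped.

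Nup98 and Rae1, which bind each other and messenger RNA on its way out, were both lower in KD, with a median of -0.53. Rae1 gave 8.44 to 8.74 (median 8.61) in late KD EBs, against 9.07 to 9.38 (median 9.23) in SCR and 9.45 to 9.63 (median 9.50) in WT, a difference from SCR of -0.60 (SE 0.0393, adjusted p = 2.76e-17). Nup98, whose transcript also encodes the Y complex protein Nup96, gave 8.16 to 8.44 (median 8.38) in KD, against 8.58 to 8.97 (median 8.81) in SCR and 8.66 to 9.05 (median 8.77) in WT. Its difference from SCR was -0.46 (SE 0.0522, adjusted p = 2.67e-10), and in both genes KD lay below the other lines without overlap.

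The basket genes were split. Nup153, which attaches the basket to the nuclear ring, gave 9.84 to 10.08 (median 9.92) in late KD EBs, against 10.23 to 10.60 (median 10.53) in SCR and 10.13 to 10.68 (median 10.44) in WT. No KD array reached the SCR or WT range, and the difference from SCR was -0.52 (SE 0.0410, adjusted p = 1.4e-14). Nup50, a mobile cofactor of import, gave 8.16 to 8.73 (median 8.41) in KD, against 8.24 to 8.84 (median 8.70) in SCR and 8.90 to 9.32 (median 9.02) in WT. Its KD and SCR arrays overlapped, its difference from SCR was -0.16 (SE 0.0502, adjusted p = 0.00469), and without replicate 3 it no longer passed (-0.15, adjusted p = 0.102).

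**Figure D3:**
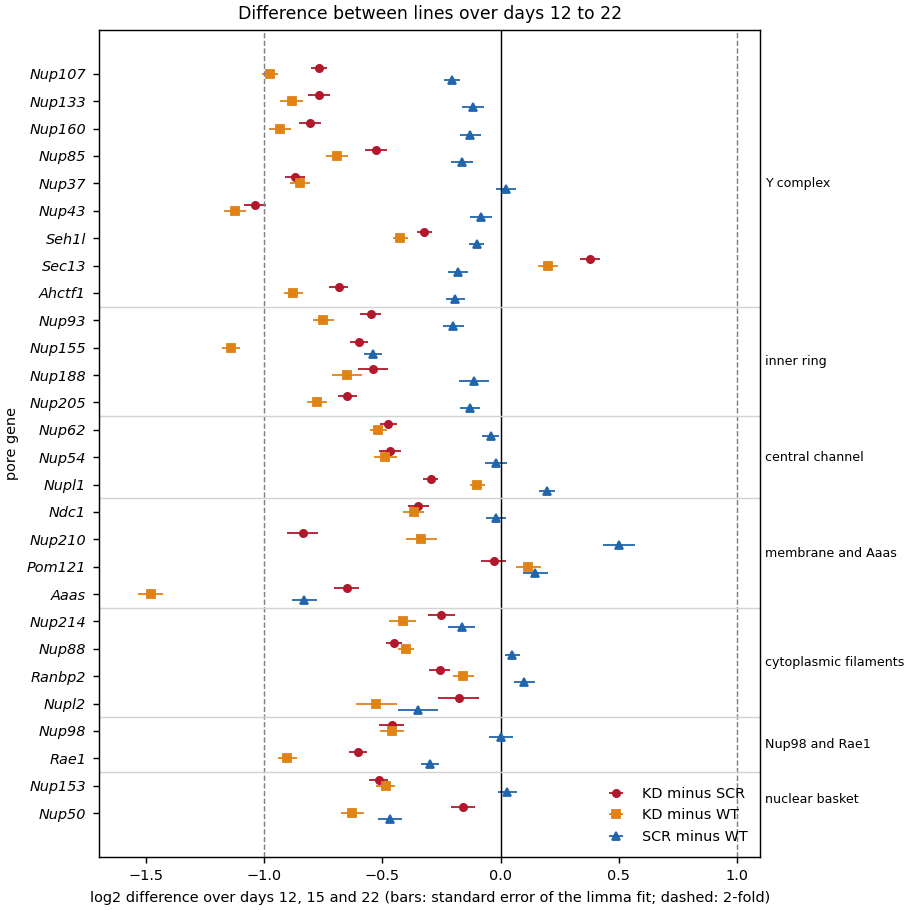
Log2 difference in late EBs for each pore gene (KD minus SCR, KD minus WT and SCR minus WT), with moderated SE as bars and dashed lines at a 2-fold change. KD lies left of 0 against both controls for most genes (median -0.52 against SCR and -0.58 against WT), and SCR minus WT is nearer 0 (median -0.11) with Aaas, Nup155 and Nup50 lowest.

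Against WT, which shares its KD arrays with the comparison above, late KD EBs were lower in 26 of 28 genes (38.0% of all genes) and higher in 2, Sec13 and Pom121 (42.9%). The median log2 change was -0.58 for the pore genes and 0.03 for all genes. Without replicate 3, 24 were lower. KD was lower in 21 genes on day 12 (27.1%), in 23 on day 15 (32.6%) and in 27 on day 22 (34.5%). In 22 genes all 9 late KD arrays lay below all 9 late WT arrays (18.1% of all genes). By the 2-fold rule 3 genes were lower (6.22%): Nup43 at -1.12 (SE 0.0461, adjusted p = 7.75e-24), Nup155 at -1.14 (SE 0.0386, adjusted p = 1.68e-26) and Aaas at -1.48 (SE 0.0539, adjusted p = 1.62e-25). Nup155 had read 7.56 to 8.11 (median 7.99) in late KD EBs, against 8.18 to 8.68 (median 8.51) in SCR and 8.79 to 9.23 (median 9.03) in WT, again 3 separate ranges. KD minus WT was 0.20 log2 for Sec13 (SE 0.0424, adjusted p = 5.99e-05) and 0.12 for Pom121 (SE 0.0529, adjusted p = 0.0423). On day 4, when Mageb16 was lowest in both KD and WT, 0 pore genes differed from WT by limma's adjusted p (1.5% of all genes were lower). At an unadjusted p under 0.05 in limma, 1 pore gene was lower (Ranbp2, beside 7.28% of all genes).

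The SCR line was not the same as WT either. In late EBs 15 genes were lower in SCR than in WT (32.1% of all genes) and 3 were higher (26.6%), and the median was -0.11 for pore genes and -0.03 for all genes. Without replicate 3, 8 were lower. The 4 genes whose late SCR and WT arrays did not overlap were Aaas (-0.83, SE 0.0539, adjusted p = 1.15e-16), Nup155 (-0.54, SE 0.0386, adjusted p = 1.92e-15), Nup50 (-0.47, SE 0.0502, adjusted p = 1.9e-10) and Rae1 (-0.30), all lower in SCR. All late SCR arrays lay below all late WT arrays in 4.87% of all genes. Nup210 ran the other way, at 0.50 above WT (SE 0.0659, adjusted p = 2.3e-08). Over late EBs Nup43 (-0.08, adjusted p = 0.137) and Nup37 (0.02, adjusted p = 0.693) did not pass between SCR and WT, and both controls stood above KD. On day 22 alone Nup43 did pass as lower in SCR than in WT, as did 22.4% of all genes.

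By subcomplex, with the brightest probe set of each gene, the median of the Y complex was -0.77 against SCR and -0.88 against WT. The inner ring gave -0.57 against SCR and -0.76 against WT, and Nup98 with Rae1 gave -0.53 and -0.68. The membrane genes with Aaas gave -0.50 against SCR but -0.35 against WT, and the central channel gave -0.47 and -0.49. The basket gave -0.34 and -0.56, and the cytoplasmic filaments gave -0.25 and -0.41. No order of the subcomplexes follows from this: with the mean of all probe sets of a gene the medians against SCR were -0.55 for the Y complex, -0.55 for the inner ring and -0.56 for the membrane genes with Aaas. The subcomplexes hold 2 to 9 genes each and differences between their medians were not tested.

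Within each line most pore genes were lower in late EBs than in ESCs, and in KD the fall was greater. Late EBs were lower than day 0 in 24 genes in KD (37.5% of all genes), in 20 genes in SCR (32.4%) and in 20 in WT (28.7%). The medians were -0.99 in KD, -0.29 in SCR and -0.35 in WT, beside 0.08, 0.04 and 0.04 for all genes. Without replicate 3 the counts were 24, 18 and 16. By the 2-fold rule 12 genes fell in KD (11.4% of all genes), 0 in SCR (5.2%) and 0 in WT (3.26%). At an unadjusted p under 0.05, limma gave 20 lower genes in SCR (33.3% of all genes) and 20 in WT (29.9%). The 12 comprise 6 of the Y complex (Nup107, Nup133, Nup160, Nup85, Nup43 and Ahctf1), Nup93 and Nup188 of the inner ring, Nup62, Aaas, Nup98 and Rae1. On day 4, 14 genes were already lower than on day 0 in KD (29.5% of all genes), 10 in SCR (24.6%) and 15 in WT (31.0%). Higher on day 4 were 6 in KD (34.4%), 7 in SCR (32.1%) and 6 in WT (34.5%). The day 4 medians were -0.17 in KD, -0.03 in SCR and -0.26 in WT.

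Ahctf1 fell most in KD, by 1.41 on the log2 scale (SE 0.0568, adjusted p = 1.83e-24), against changes of -0.64 in SCR and -0.39 in WT. Nup133 changed by -1.41 in KD (SE 0.0674, adjusted p = 6.66e-22), against -0.63 in SCR and -0.52 in WT, and Nup93 by -1.39 in KD, against -0.99 in SCR and -0.84 in WT. Nup50 fell in all 3 lines, with -0.99 in KD (SE 0.0709, adjusted p = 3.01e-16), -0.99 in SCR (adjusted p = 6.66e-16) and -0.77 in WT (adjusted p = 1.84e-12). Nup37 changed by -0.99 in KD but by 0.21 in SCR (adjusted p = 0.00234) and 0.02 in WT (adjusted p = 0.814). Besides Nup37 in SCR, genes higher in late EBs than in ESCs were Nupl1 (0.10 in KD, 0.61 in SCR and 0.49 in WT), Ranbp2 in KD (0.49) and WT (0.37) and Sec13 in KD (0.37, SE 0.0599, adjusted p = 5.17e-07).

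**Figure D4:**
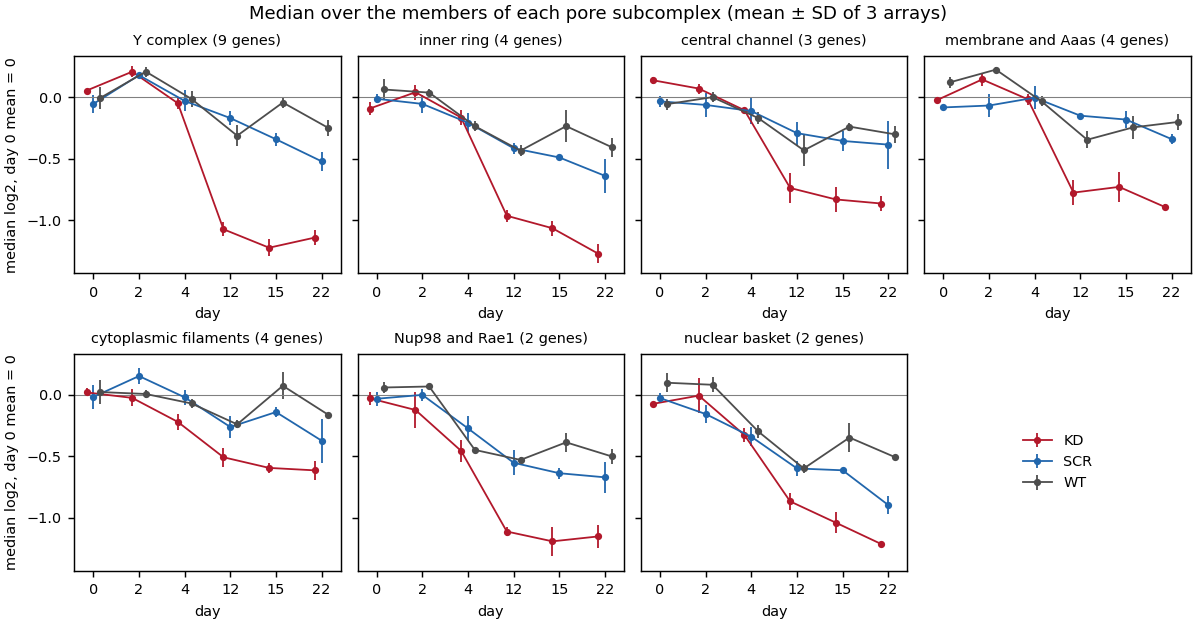
Median log2 value of the genes of each subcomplex relative to their day-0 mean over all lines (mean ± SD of 3 arrays), by day, for KD, SCR and WT cells. The Y complex stood at -1.08, -1.23 and -1.14 in KD EBs on days 12, 15 and 22, against -0.17, -0.34 and -0.52 in SCR and -0.31, -0.04 and -0.25 in WT.

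The change from day 0 to late EBs was compared between lines directly, as an interaction in the same fit on the same arrays. It was lower in KD than in SCR for 24 genes (30.3% of all genes) and higher for 2, Ranbp2 and Sec13 (30.8%). By the 2-fold rule 2 were lower (6.9%), Nup37 at -1.19 and Nup43 at -1.16. Set against WT, the change in KD was again lower for 24 genes (28.9%) and higher for 2, Sec13 and Pom121 (35.4%). Without replicate 3 the lower genes numbered 23 against SCR and 21 against WT. For SCR against WT the change was lower in 2 genes, Ahctf1 and Ranbp2 (13.3%), and higher in 1, Pom121 (17.3%). The 3 comparisons share arrays and do not count as separate evidence.

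Within late EBs, day 22 was also set against day 12. In KD 16 genes were lower on day 22 than on day 12 (22.0% of all genes, median -0.18), and in SCR 12 were (18.7%, median -0.17). In WT 3 were lower (17.8%) and 7 higher (17.9%), with a median of 0.07. Pom121 gave 8.93, 8.87 and 8.70 in 22-day KD EBs, against 9.44, 9.38 and 9.29 in 12-day KD EBs, a fall without overlap (-0.54, SE 0.0916, adjusted p = 5.32e-06). Seh1l gave 10.18, 10.23 and 10.24 in 22-day WT EBs, against 9.79, 9.75 and 9.79 in 12-day WT EBs, and was higher (0.44, SE 0.0549, adjusted p = 3.36e-08), while in KD it was lower (-0.16, adjusted p = 0.0141). Whether these changes differ between lines was not tested.

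Other probe sets of the same genes gave a like picture. Of all 72 probe sets, 63 were lower and 1 was higher in late KD than in late SCR EBs, beside 39.0% lower and 31.3% higher of all 30939 probe sets, and of the 44 not used above 38 were lower and 0 higher. The other set for Nup43 gave -1.21. Both other sets for Nup50 gave larger falls (-0.68 and -0.28) than the set used, and those for Ndc1 gave -0.65 and -0.39. A further set for Pom121 did not pass (-0.13, adjusted p = 0.0976). Probe sets are not independent of each other, as they read the same RNA.

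Proteins that work with the pore were followed as further lists. Of 13 measured mRNA export and docking partners, 10 were lower and 2 higher in late KD than in late SCR EBs, with a median of -0.33, beside 39.0% lower and 38.1% higher among all genes. The lower genes were led by Mcm3ap (-0.48), the scaffold of the TREX-2 complex at the pore, and the THO complex genes Thoc5 (-0.42) and Thoc1 (-0.42). The 2 higher genes were Thoc2, also of the THO complex (0.11, adjusted p = 0.0443), and Tmem33 (0.11, adjusted p = 0.0387). The nuclear lamina and envelope list was mixed, with 7 lower and 6 higher of 15 and a median of -0.03, near those shares of all genes. Lmna, which encodes A-type lamins and is typical of differentiated cells, was higher (1.65, SE 0.0749, adjusted p = 2.02e-22), as was the linker gene Syne1 (0.85), and Lbr, the lamin B receptor, was lower (-0.79, SE 0.0357, adjusted p = 1.71e-22).

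Genes of proliferation and of cell identity were set beside the pore genes in late EBs. Of 15 proliferation genes, 14 were lower and 0 higher in late KD than in late SCR EBs (median -0.65), beside 39.0% of all genes lower, led by Bub1 (-1.26), a mitotic checkpoint kinase, and the replicative helicase genes Mcm3 (-0.97) and Mcm2 (-0.88), and Mki67 did not pass (-0.08, adjusted p = 0.0924). Their summed signal was 17459 to 22329 in late KD EBs, against 26198 to 31677 in SCR and 27666 to 33303 in WT, with KD below both other lines. On day 0 it had been 35184 to 35963 in KD, against 32500.1 to 36153 in SCR and 31279 to 35579 in WT, with the lines overlapping. All 10 pluripotency genes were lower than in SCR (median -2.62), with a summed signal of 4427 to 14484 in KD, against 23860 to 32961 in SCR and 26386 to 32127 in WT. Against SCR the pluripotency genes were already lower in KD on day 4 (10 of 10, median -2.69, beside 23.5% of all genes). The pore genes had a median of -0.02 in that comparison. SCR stood apart from WT on day 4, with 22.2% of all genes higher and 26.2% lower in SCR. Between KD and WT 0.553% were higher and 1.5% lower in KD. The pluripotency list was not set against WT on that day.

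Markers of other cell types also differed between late KD and SCR EBs, where 38.1% of all genes were higher and 39.0% lower in KD. Of the measured genes, 10 of 10 cardiac muscle genes were higher in KD (median 2.81), as were 10 of 10 of endothelium and blood (2.68), 9 of 10 of mesenchyme (2.33) and 8 of 8 of visceral endoderm and liver (4.89). Of 7 skeletal muscle genes 5 were higher and 1 was lower (0.39). These 7 were dim, with a summed signal of 144.8 to 842.3 (median 163.5) in late KD EBs, against 195.3 to 286.6 (median 224.9) in SCR. Of 9 neural genes 8 were lower and 0 higher (-1.31). Against WT the neural list ran the other way, with 7 higher and 1 lower in KD (42.9% and 38.0% of all genes), while 26 of the 28 pore genes were lower there too. Higher in KD than in WT were 9 of 10 cardiac genes (median 1.88) and 10 of 10 of mesenchyme (2.10). So were 8 of 10 of endothelium and blood, with 1 lower (1.90), and 8 of 8 of visceral endoderm and liver (1.58). Late SCR EBs were below WT in 8 of 8 visceral endoderm and liver genes (median -3.49, beside 32.1% of all genes). They were below WT in 8 cardiac genes (-0.49), 8 of endothelium and blood (-0.90) and 5 of mesenchyme (-0.32), with 2 mesenchyme genes higher. The part of proliferation, of remaining pluripotent cells or of any cell type in the pore gene values was not tested.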

How the data were processed

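RNA of 54 samples was hybridised to Affymetrix Mouse Genome 430 2.0 arrays after biotin labelling with a 3′ kit. The deposited table holds log2 values of 30939 probe sets, made by the authors with RMA (background correction, quantile normalization and probe summary) in Expression Console and Partek 6.6, per the submitters' notes. RMA evens out the distributions of arrays, so a shift of total RNA per cell is not seen. Values ran between 1.65 and 14.03 and array medians between 5.94 and 6.26. No value was normalized again.

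Line, day and replicate came from sample titles. The platform annotation gave 25596 probe sets 1 symbol, 685 several and 4658 none, and a gene was read by its brightest probe set with that symbol alone (14104 genes). Probe sets of older design may also read related transcripts. In R 4.3.3, limma 3.58.1 fitted the 18 group means with moderated variances, and each contrast's p values over all probe sets received a Benjamini-Hochberg adjustment. A gene passed at an adjusted p under 0.05, and the study's rule adds a 2-fold minimum. Shares of all genes refer to the 14104 genes in the same contrast. On simulated arrays built from these data, a true log2 change of 0.25 was recovered in 22 of 50 cases, one of 0.5 in 45 of 50, one of -0.5 in 50 of 50, and 11 of 30739 unchanged probe sets were called. The simulation changed few probe sets and used independent noise. In the real late comparison of KD with SCR, 39.0% of all probe sets were lower and 31.3% higher. The adjusted cutoff differs there, so these rates do not carry over to it.

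Pore genes and gene lists were chosen with earlier results of these data known. Genes named with full values were those called against SCR by the 2-fold rule, those the study names (Nup43, Nup133, Nup37 and Seh1l), and the most and least changed gene of each subcomplex in late EBs. Nup107, Sec13, Aaas, Nup155 and Ranbp2 were added after their values were seen. Promoters were RefSeq sequences searched for fixed letters. Alternatives were normalization, the probe sets used, the arrays in the fit, a variance trend, weights on arrays, a test against 1.5-fold, a replicate block, and each array left out in turn.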

Additional observations from a re-analysis of the deposited data

Results flagged for a closer look

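The change between day 0 and late EBs differed between the lines for most pore genes by limma's interaction (adjusted p under 0.05). Against SCR it was lower in KD for 24 genes and higher for 2, and against WT it was lower in KD for 24 and higher for 2. The values below are the change in KD minus the change in SCR, in log2. In the Y complex it was -1.19 for Nup37, -1.16 for Nup43, -0.89 for Nup107, -0.82 for Nup160, -0.78 for Nup133, -0.77 for Ahctf1, -0.61 for Nup85, -0.44 for Seh1l and 0.27 for Sec13. The inner ring gave -0.60 for Nup205, -0.58 for Nup155, -0.56 for Nup188 and -0.40 for Nup93. The channel gave -0.61 for Nup54, -0.51 for Nupl1 and -0.50 for Nup62. Among membrane genes it was -0.90 for Aaas, -0.88 for Nup210 and -0.46 for Ndc1. The filament genes gave -0.53 for Nup88, -0.48 for Nupl2, -0.30 for Nup214 and 0.46 for Ranbp2, whose level in KD ESCs was already below that in SCR ESCs. Rae1 gave -0.60, Nup98 -0.47 and Nup153 -0.58. Causes were not tested.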

How the results depend on the processing

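The count of 25 pore genes lower in late KD than in late SCR EBs was 25 to 26 with any 1 array left out and 24 without replicate 3 in all groups, a setting added after the data were seen. Whether the replicate number pairs the arrays is unclear. Deviations of same-numbered arrays of a day correlated at r = -0.40 to 0.50 (median 0.116), against a median of -0.0615 for arrays of other numbers. A fit with the replicate block gave the same count of 25 and changed no other count. Of the gene results under alternatives, most of which left out 1 array, 755 of 783 kept direction and side of the threshold. However, 21 of the 28 genes had another label in some setting. Most of these lost their call in the test against a 1.5-fold change, which left 7 of the 25 genes called lower. Pom121 turned to 0.0083 without replicate 3 (-0.03 with all arrays), and was called in neither case. Nupl2 passed under quantile normalization (-0.24, adjusted p = 0.0154), with centred arrays (-0.25, adjusted p = 0.013) and with only the arrays compared (adjusted p = 0.0359).

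On day 2 the count lower against SCR (3) was 1 with only the arrays compared, 5 with array weights, 1 without replicate 3, and 1 to 3 with 1 array left out (1 without SCR replicate 1 of day 2). On day 4 the count (5) was 3, 8 and 3 in these settings and 3 to 5 with 1 array left out (3 without SCR replicate 3 or KD replicate 1 of day 4), and Nup210's 2-fold call was lost without SCR replicate 2 of day 4 (0 to 1). The count lower in SCR than WT (15) was 8 without replicate 3 and 12 to 15 with 1 array left out.

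Testing against a 1.5-fold change in place of the 2-fold rule gave 4 lower genes on day 12, 4 on day 15, 1 on day 22 and 7 late (1 by the rule) against SCR, 11 late against WT (3), 1 for SCR against WT (0), 5 and 7 for the interactions of KD with SCR (2) and WT (4), and 21, 4 and 2 against day 0 in KD (12), SCR (0) and WT (0). The share of all genes called by the 1.5-fold test was not computed, so these counts have no background beside them. With arrays centred on their medians, 2-fold counts were 6 for KD against WT, 19 for KD late against day 0 and 2 for SCR late against day 0, and subcomplex medians against SCR were -0.84 for the Y complex and -0.54 for the central channel. Centring moved late KD minus SCR by 0.071, KD minus WT by 0.108 and SCR minus WT by 0.037, and late minus day 0 by 0.22 in KD, 0.159 in SCR and 0.126 in WT, so counts against day 0 are relative to the array median there. The mean of all probe sets of a gene gave 2 for SCR and 1 for WT against day 0, and medians of -0.55 for the Y complex (-0.77 with the brightest set), -0.55 for the inner ring, -0.56 for the membrane genes with Aaas, -0.51 for the channel, -0.29 for the filaments, -0.45 for Nup98 with Rae1 and -0.48 for the basket, so the Y complex no longer had the lowest. The count for SCR late against day 0 was 2 without replicate 3 and 0 to 2 with 1 array left out (2 without SCR replicate 3 of day 0 or day 12, 1 without SCR replicate 1 of day 12 or day 22 or replicate 3 of day 22). The causes were not tested. With 3 arrays a group precision is limited, and Nupl2 was dim.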

Other observations

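Sec13 is also a subunit of the COPII coat. The other coat genes were looked at after its value had been seen, as a description: of 9 measured, 8 were higher and 0 lower in late KD than in late SCR EBs, with a median log2 change of 0.31, where 38.1% of all genes were higher. Against WT 8 were higher and 1 lower, where 42.9% of all genes were higher. Sec24d, a cargo adaptor of the coat, was higher by 0.72 (SE 0.0553, limma adjusted p = 4.01e-15), and Sar1a, the GTPase that starts coat assembly, by 0.67 (SE 0.0471, adjusted p = 3.27e-16).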
